A study of Mus musculus with 9 samples.

Results

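HOX genes encode homeodomain transcription factors that give cells their address along the body axis and the limb. They lie in 4 clusters, HOXA to HOXD, and are numbered by paralog group from the 3′ end, group 1, to the 5′ end, group 13. Genes at the 3′ end are switched on earlier and nearer the head, and genes at the 5′ end are used in the tail and the distal limb, so the set of HOX genes a cell transcribes (its HOX code) marks position. Skeletal and connective tissue cells of the adult keep much of this code, whereas neural crest bone of the face forms largely without it. HOX genes were taken as all protein-coding genes of the count table named Hoxa, Hoxb, Hoxc or Hoxd with a paralog number. There were 39 such genes among the 55367 of the table, 11 in HOXA, 10 in HOXB, 9 in HOXC and 9 in HOXD, and all 39 were found in the mouse annotation.

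RNA was sequenced from osteosarcomas (OS) that arose in genetically engineered mouse models (GEMMs). In 4 p53-driven tumors, Cre recombinase under the osteoblast promoter fragment Col2.3 deleted a floxed copy of Trp53 in mice whose other Trp53 allele was intact. The 5 Myc-knockin tumors carried the same Col2.3-Cre and Trp53 fl/+ alleles and, in addition, a Lox-Stop-Lox Myc transgene with the T58A change. Both groups thus share the Cre driver and the floxed Trp53 allele, and the knockin was compared on that background. The bone that each tumor came from, and the age and sex of each mouse, were not given in the sources used here. For the models as a whole the authors report an earlier sacrifice of Myc-knockin mice, so age and genotype cannot be told apart. Likewise, a HOX code that differed by tumor site and one that differed by genotype cannot be told apart. Tumors are named by their column, F187, F325, F331 and F368 for p53-driven and M351, M408, M9, M624 and M664 for Myc knockin.

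The libraries were unequal, and this bears on every low HOX count. Total counts ran from 2716322 in M351 to 17073285 in M624. Satellite-repeat genes took 44.3% of the counts in F187, 67.9% in M351, 23.2% in M408 and 81.0% in M9, against at most 0.0242% in the other 5 libraries. After these were set aside, 1686676 counts remained in F187, 872935 in M351, 3300482 in M408 and 671790 in M9. The same 4 libraries held reads on chemosensory receptor genes, which bone has no known use for, at 0.708, 1.11, 0.151 and 1.23 counts per kb of exon in F187, M351, M408 and M9, against 0.0350 to 0.0447 elsewhere. Counts of 10 or fewer in those 4 tumors were therefore read as possible genomic background. M624 and M664 stood apart in another way, because Rn7sk, an abundant RNA without a poly(A) tail, was at 3.47 and 6.35 CPM (counts scaled to a common library size) there and at 6545 to 10667 CPM in the other 7. Each Myc-knockin library was thus either rich in satellite reads or low in Rn7sk, while F325, F331 and F368 were neither. Library kind and genotype therefore cannot be told apart in the comparison of the groups. Every pair of tumors within a group differed beyond sampling noise, the closest being M351 and M9 with a chi-square of 7.60 per degree of freedom.

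The osteoblast identity given by the Cre driver was visible but uneven. All 16 osteoblast lineage markers passed the filter on low counts, and their summed level was 71637, 156333, 149489 and 152057 CPM in F187, F325, F331 and F368. It was 20157, 11331, 22648, 4719 and 47874 CPM in M351, M408, M9, M624 and M664, so every Myc-knockin tumor lay below every p53-driven tumor. Col1a1, the main bone collagen gene, had the highest mean CPM of the list. Of the osteocalcin genes, Bglap, Bglap2 and Bglap3 were at 0 in M408 and Bglap2 was also at 0 in M624. Runx2, the master regulator of the lineage, ran from 132 to 371 CPM in 8 tumors, while M624 had 9.18 CPM. In bulk tumors, fewer cells of a type and less RNA per cell cannot be told apart, and the part of these markers in the HOX values was not tested.

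HOX transcripts were present at modest levels in 8 tumors and nearly missing from 1. The 39 genes together made up 211 CPM in F187 (95% counting interval 193 to 230), 339 CPM in F325 (329 to 349), 163 CPM in F331 (156 to 171) and 121 CPM in F368 (114 to 129). Among the Myc-knockin tumors they made up 107 CPM in M351 (91.8 to 124), 81.1 CPM in M408 (73.8 to 89.1), 210 CPM in M9 (186 to 237) and 176 CPM in M664 (171 to 182). In M624 they summed to 4.46 CPM (3.69 to 5.34), from 117 counts in the deepest of the 9 libraries. The groups overlapped, and F325 was the highest and M624 the lowest. The receptor genes predicted 72.9 of the 534 HOX counts in F187 as background, 114.7 of 174 in M351, 15.5 of 443 in M408 and 126.4 of 264 in M9. With that background taken off, the sums became 184 CPM in F187, 50.5 CPM in M351, 78.8 CPM in M408 and 119 CPM in M9. Intervals here and below cover counting error only.

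More than 10 counts were found for 18 HOX genes in F187, 27 in F325, 24 in F331, 17 in F368, 2 in M351, 13 in M408, 8 in M9, 3 in M624 and 26 in M664. None of the 39 genes had more than 10 counts in all 9 tumors, and 7 had more than 10 in none. At a level of at least 8.76 CPM, which is 11 counts in the shallowest library M9, the numbers were 8, 12, 5 and 5 in the p53-driven tumors and 1, 2, 8, 0 and 9 in M351, M408, M9, M624 and M664. The shallow libraries M351 and M9 thus left most of the code below what could be told from background.

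**Figure D1:**
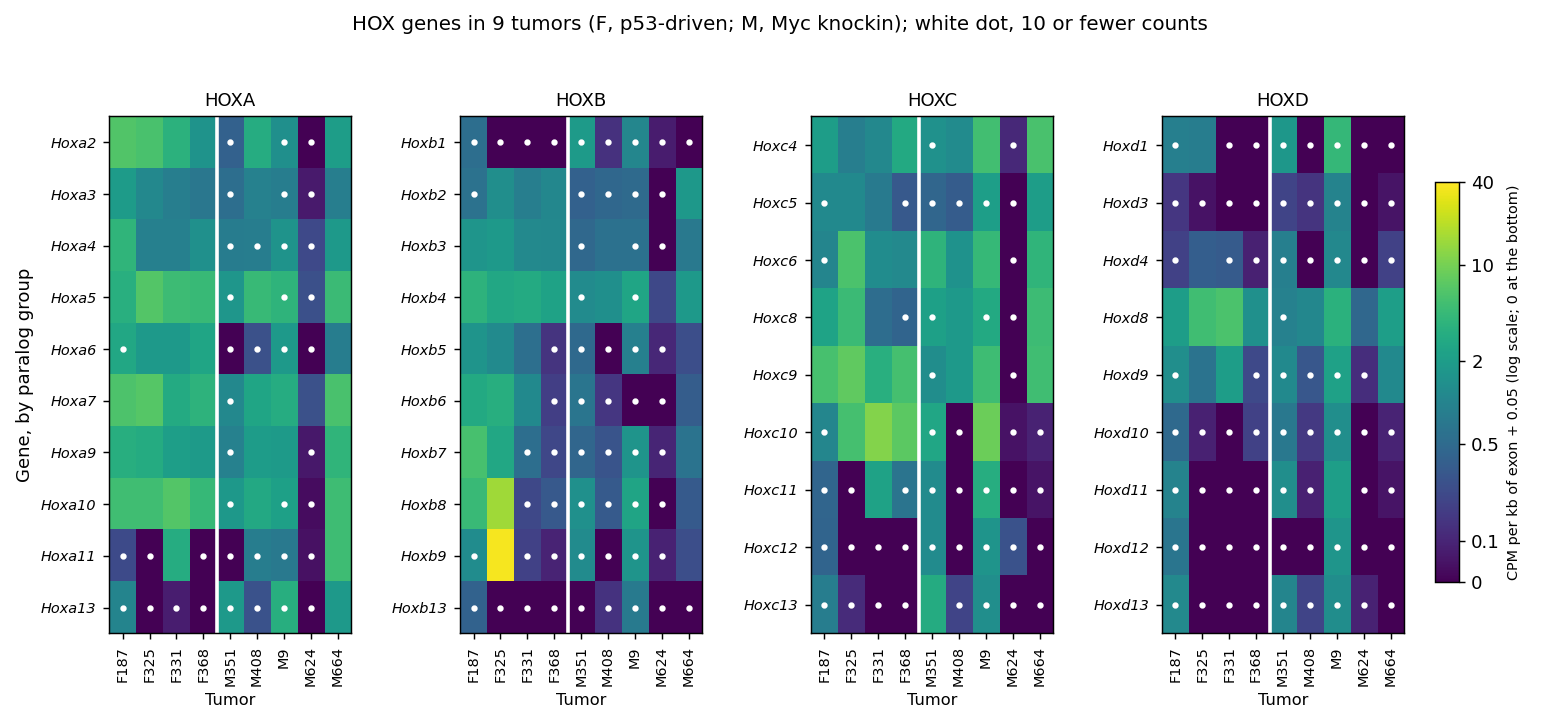
Level of 38 HOX genes in each tumor, as CPM per kb of exon plus 0.05 on a log color scale, with clusters in separate panels and genes ordered by paralog group from top to bottom. A white line divides the 4 p53-driven (F) from the 5 Myc-knockin (M) tumors, and a white dot marks 10 or fewer counts. F325 stands out at Hoxb9 (36.7 CPM per kb), M624 is dark in all 4 panels, and HOXD below Hoxd9 is dark or dotted in nearly every tumor.

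The p53-driven tumors shared a proximal HOXA code and differed at the 5′ ends of the clusters. Each transcribed HOXA from Hoxa2 up to Hoxa10, with Hoxa6, at 6 counts, under the background limit in F187. F331 alone of the 4 went on to Hoxa11, a gene needed for the zeugopod of the limb, with 82 counts against 1 in F187 and 0 in F325 and F368. A count of 0 allows up to 0.233 CPM in F325 and 0.365 CPM in F368. In HOXB, more than 10 counts reached Hoxb8 in F187, Hoxb9 in F325, Hoxb6 in F331 and Hoxb4 in F368. In HOXC they reached Hoxc9 in F187, Hoxc10 in F325 and F368, and Hoxc11 in F331. Per kb of exon, the leading HOX gene was Hoxa2 in F187 (6.45 CPM per kb), Hoxb9 in F325 (36.7 CPM per kb) and Hoxc10 in F331 and F368 (11.6 and 7.39 CPM per kb). By this limit on counts, these 4 tumors of 1 genotype had 4 different upper ends of the code. The limit depends on depth, since 11 counts are 4.34 CPM in F187 and 0.856 CPM in F325. In F187 Hoxb9 had 8 counts (3.16 CPM) and Hoxc10 had 5 (1.97 CPM). Where the code of F187 ended was thus not settled at its depth.

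The Myc-knockin tumors also differed among themselves. M664 carried the most 5′ HOXA code of the 9, with 262 counts of Hoxa11 and 101 of Hoxa13, the HOXA gene of the hand and foot. In the same tumor Hoxc10 had 2 counts and Hoxc11 1 count, while Hoxc9 had 288, so its HOXC code ended at Hoxc9. M408 reached Hoxa10 with 49 counts and had 10 of Hoxa11, reached Hoxb4 in HOXB, and ended at Hoxc9 with 24 counts and 0 of Hoxc10. In M624 the 3 genes over 10 counts were Hoxd8 with 30, Hoxa7 with 16 and Hoxb4 with 11, and 20 of the 39 genes had 0 counts, which allows up to 0.114 CPM each. M351 passed 10 counts for Hoxc6 (15, with 2.68 expected as background) and Hoxc13 (12, with 2.74 expected). M9 passed it for 8 genes, led by Hoxc10 with 21 counts against 2.35 expected, and including Hoxd11 with 11 against 5.18. The leading gene per kb was Hoxc6 in M351 (3.83 CPM per kb), Hoxa5 in M408 (4.49), Hoxc10 in M9 (8.76), Hoxd8 in M624 (0.417) and Hoxc4 in M664 (5.87).

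The 4 clusters were used unequally. Of the summed HOX level per kb, HOXA took 45.3%, 25.3%, 44.3% and 47.9% in F187, F325, F331 and F368 and 22.0%, 60.9%, 24.4%, 37.9% and 51.2% in M351, M408, M9, M624 and M664. HOXB took 49.6% in F325 and 9.09% to 27.5% in the other 8 tumors. HOXC lay between 15.8% in M624 and 40.8% in M351. HOXD was the smallest share in 6 of the 9 tumors, between 3.60% in F368 and 28.1% in M624, the latter resting on 37 counts. By paralog group, genes of groups 4 to 8 took 39.1% to 69.8% of the level per kb, groups 9 to 13 took 24.2% to 47.7%, and groups 1 to 3 took 6.07% to 18.4%. Both extremes of the groups 4 to 8 share, F331 and M624, came from libraries with few satellite reads.

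Distal HOXD was barely detectable at this depth where the background was low. Hoxd10, Hoxd11, Hoxd12 and Hoxd13, which pattern the forearm, hand and lower limb, had 0 to 3 counts each in F325, F331, F368, M624 and M664. In F187, M351, M408 and M9 they reached 10, 9, 2 and 11 counts at most, close to the range the background predicted for F187 (1.29 to 2.98 counts each), M351 (2.02 to 4.70) and M9 (2.23 to 5.18) or a few counts above it. HOXD was represented mainly by Hoxd8, at 1.14 to 16.4 CPM over the 9 tumors, and Hoxd9, with more than 10 counts in F325, F331 and M664. In F325 Hoxd1 and Hoxd4 also passed 10 counts, with 19 and 12. Hoxb13, the most 5′ HOXB gene, had 0 to 2 counts in every tumor, and Hoxc12 had 0 to 6.

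Between the groups, no HOX gene was called. The edgeR quasi-likelihood test was fitted to all 9 tumors, and a gene was called at a Benjamini-Hochberg adjusted p under 0.05 with a fold change over 1.5. Of 15365 genes that passed the filter on low counts, 809 were called (5.27%), 348 higher and 461 lower in Myc-knockin tumors. With upper-quartile normalization the split turned to 626 higher and 345 lower. The filter kept 23 of the 39 HOX genes, 10 in HOXA, 4 in HOXB, 7 in HOXC and 2 in HOXD, and 0 of them were called by edgeR in either direction. At an unadjusted p under 0.05 there was 1, with 4112 such genes (26.8%) among all tested. DESeq2 called 1 HOX gene as lower, against 13.6% of its genes called, and limma-voom with sample weights called 2, Hoxc10 among them, as lower, against 10.8%. The intervals below are wide, so the missing calls do not show that the groups were alike.

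The direction of the estimates was mostly downward in the Myc-knockin tumors. Of the 23 tested HOX genes, 18 had a negative log2 fold change (Myc knockin minus p53-driven) and 5 a positive one, Hoxa13, Hoxc4, Hoxc5, Hoxc6 and Hoxc8. With upper-quartile normalization 17 were negative, with library size alone 19 and with limma-voom 22, where the median was -1.36. With background subtracted 17 of 20 were negative with a median of -1.15. With all genes of at least 1 count 23 of 39 were negative, with a median of -0.57 beside 0.97 over all genes. In the edgeR fit to the filtered table the HOX median was -0.87 on the log2 scale, beside 0.14 over all 15365 genes, of which 43.8% were negative. The median was -0.91 in HOXA, -1.38 in HOXB, 0.14 in HOXC and -0.73 in HOXD, and -1.64, -0.78 and -0.54 for paralog groups 1 to 3, 4 to 8 and 9 to 13. The median of all genes was 0.24 with upper-quartile normalization and 0.03 with library size alone, beside HOX medians of -0.79 and -0.95. Without M624 the HOX median was -0.61, and without M664 it was -1.42. The other 16 HOX genes were too low to test. The p-values measure the spread between these tumors.

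**Figure D2:**
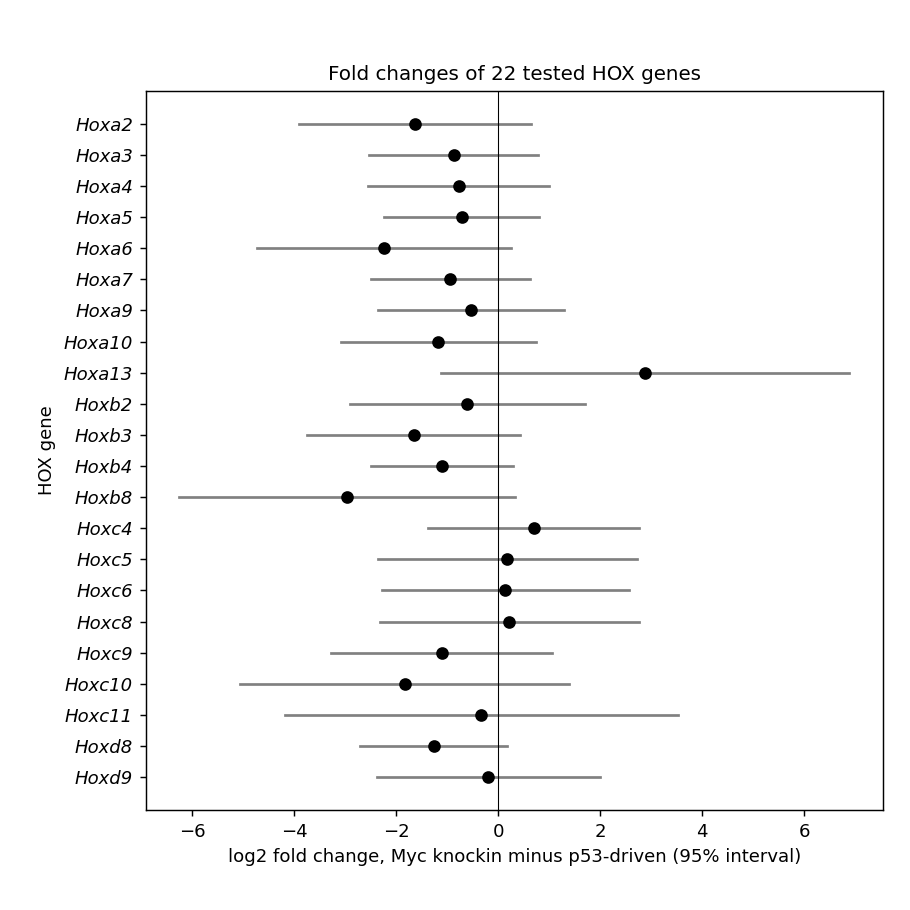
Log2 fold change of 22 tested HOX genes, Myc knockin minus p53-driven, as points with 95% intervals from the edgeR fit as bars, ordered by cluster and paralog group. All 22 intervals include 0, and that of Hoxb8 is -6.26 to 0.33.

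The groups did not overlap for 2 of the 23 tested HOX genes, beside 13% of all tested genes. Hoxb3 was higher in all 4 p53-driven than in all 5 Myc-knockin tumors. Hoxb3, a hindbrain and neck gene, was at 6.71, 7.70, 4.76 and 4.62 CPM in F187, F325, F331 and F368. In M351, M408, M9, M624 and M664 it was at 1.85, 2.38, 2.39, 0 and 2.98 CPM. The values in M351 and M9 came from 3 counts each, with 4.74 and 5.22 expected as background. The level of Hoxb3 in those tumors could thus not be told from background, and the separation of the groups rests in part on them. The lowest p53-driven tumor was F368 and the highest Myc-knockin tumor M664, and the log2 fold change was -1.66 (SE 0.95, adjusted p = 0.289 by edgeR). The means were 5.95 ± 1.51 CPM (SD, n = 4) and 1.92 ± 1.15 CPM (SD, n = 5). An antisense gene limits the reading of this one, since 2250 of its 4251 exon bases are also exon of Hoxb3os on the other strand, and the strand setting of the counting was not given in the sources used here.

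The 5′ end of HOXB showed the widest range of any HOX region, and F325 made it. Hoxb9, a thoracic gene, had 1214 counts in F325, or 94.4 CPM, and was at 3.16, 0.346 and 0.122 CPM in F187, F331 and F368. The Myc-knockin tumors had 3.08, 0, 3.98, 0.114 and 0.518 CPM in M351, M408, M9, M624 and M664. It had the highest mean level per kb in HOXB, 4.56 CPM per kb, through F325, and was not tested because its counts were too low in most tumors. Its neighbor Hoxb8 followed, with 40.5 CPM in F325, 12.2 CPM in F187, 0.432 CPM in F331 and 0.729 CPM in F368. In M351, M408, M9, M624 and M664 Hoxb8 was at 3.69, 0.733, 6.37, 0 and 0.734 CPM, giving the most negative estimate of the 23, -2.97 (SE 1.5, adjusted p = 0.230 by edgeR). The groups overlapped, and without F325 the estimate was -1.07. Hoxb7 and Hoxb6 were highest in F187 and F325 (8.69 and 4.12 CPM, and 5.53 and 6.38 CPM). The long noncoding gene Gm53, which lies between Hoxb13 and Hoxb9, had 122 counts in F325 and 0 to 4 in the other 8 tumors.

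F325 was also the tumor with the most skeletal muscle RNA. The 13 muscle markers summed to 31.2, 5592, 47.7 and 562 CPM in F187, F325, F331 and F368 and to 133, 2573, 586, 11.9 and 631 CPM in M351, M408, M9, M624 and M664. Acta1, skeletal muscle actin, had the highest mean CPM of the list. Pax7 was at 0 in F331, F368, M624 and M664, Myod1 and Pvalb were at 0 in M624, and Myog was at 0 in F187. Of 12 tested markers 0 were called by edgeR, DESeq2 or limma-voom, and 0 were at an unadjusted p under 0.05. M408, with the second highest sum, had 0 counts of Hoxb9 and 4 of Hoxb8. The part of muscle in the Hoxb9 level of F325 was not tested.

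Hoxc10, a gene of the lumbar and thigh level, had the highest mean level per kb in HOXC, 4.11 CPM per kb. It was at 1.97, 10.7, 22.1 and 14.1 CPM in F187, F325, F331 and F368, with 5 counts behind the first value. In M351, M408, M9, M624 and M664 it was at 4.92, 0, 16.7, 0.0381 and 0.0864 CPM. M408, M624 and M664 together held 3 counts. The groups overlapped, since M9 with 21 counts and M351 with 8 counts both lay above F187. The log2 fold change was -1.84 (SE 1.47, adjusted p = 0.452 by edgeR). Without M9 it was -4.41 with an adjusted p of 0.0922, within a range of 0.00463 to 0.992 over 21 alternatives. Without F187, M351, M408 and M9 it was -7.81 with an adjusted p of 0.00463 (3 tumors against 2), and among those 4 alone it was 1.66, so the direction turned with the libraries used. Its exons share 166 bases with Hoxc5. Hoxc11, the next gene, had 54 counts in F331, 10 in F368, 8 in M9 and 0 to 4 in the other 6.

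Hoxa13 had the most positive estimate, 2.88 (SE 1.82, adjusted p = 0.335 by edgeR). It was at 2.37, 0, 0.0865 and 0 CPM in F187, F325, F331 and F368 and at 4.31, 0.549, 7.97, 0 and 4.36 CPM in M351, M408, M9, M624 and M664. The value in M664 came from 101 counts, while those in M351 and M9 came from 7 and 10 counts. Without F187, which held 6 of the 7 counts in p53-driven tumors, the estimate was 6.26 (adjusted p = 0.107 by edgeR), and the other 5 left-out fits gave 2.19 to 3.46. The groups overlapped. Hoxa11 was not tested and was at 0.395, 0, 7.09 and 0 CPM in F187, F325, F331 and F368 and 0, 1.83, 1.59, 0.0381 and 11.3 CPM in M351, M408, M9, M624 and M664. F331 and M664, a tumor of each group, stood above the rest with 82 and 262 counts, and the other 7 had 0 to 10. The antisense gene Hoxa11os, which covers 800 of the 2287 exon bases of Hoxa11, had 174 counts in M664 and 5 in F331.

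**Figure D3:**
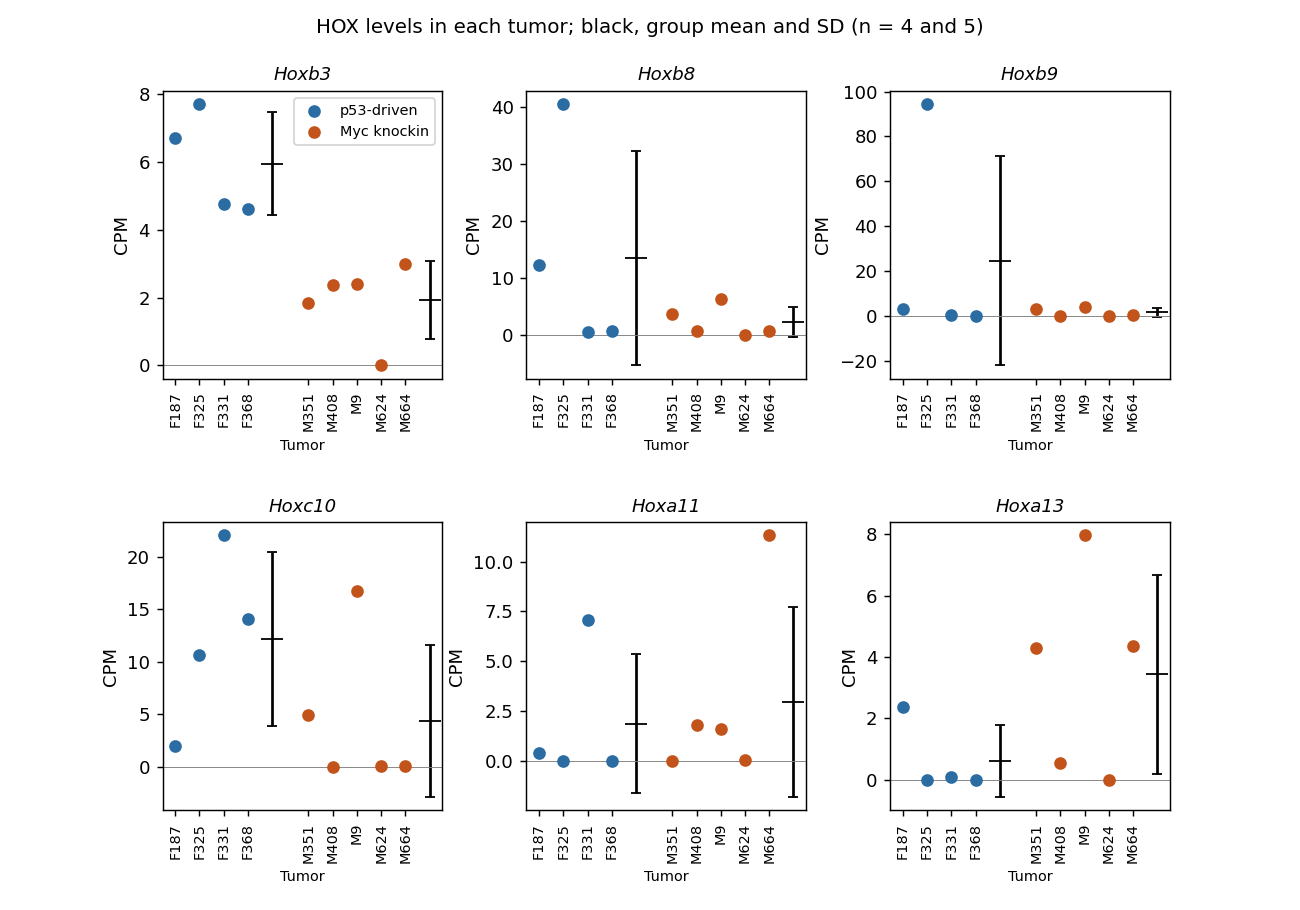
CPM of 6 HOX genes in each tumor, with p53-driven tumors in blue and Myc-knockin tumors in orange; black bars give the group mean and SD (n = 4 and n = 5) on linear axes that differ between panels. Hoxb3 separates the groups, though its values in M351 and M9 come from 3 counts each, fewer than expected as background. Hoxb8 and Hoxb9 are high in F325 (40.5 and 94.4 CPM), and Hoxa11 is high in F331 and M664 (7.09 and 11.3 CPM).

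The remaining genes described by level or by estimate were less tied to 1 tumor. Hoxa5, which shapes the neck and rib cage, had the highest mean level per kb in HOXA, 3.81 CPM per kb. It was at 6.32, 12.6, 9.17 and 8.39 CPM in F187, F325, F331 and F368 and at 3.08, 8.42, 7.17, 0.381 and 8.81 CPM in M351, M408, M9, M624 and M664. M624 was the low tumor and the groups overlapped, with a log2 fold change of -0.72 (SE 0.69, adjusted p = 0.533 by edgeR). Hoxd8 led HOXD at 2.49 CPM per kb. It was at 5.53, 14.0, 16.4 and 3.77 CPM in F187, F325, F331 and F368 and 2.46, 2.93, 9.56, 1.14 and 5.74 CPM in M351, M408, M9, M624 and M664, with a log2 fold change of -1.27 (SE 0.66, adjusted p = 0.241 by edgeR). Hoxa6, a cervical and thoracic gene, was at 2.37, 1.56, 1.56 and 2.19 CPM in F187, F325, F331 and F368 and 0, 0.183, 1.59, 0 and 0.691 CPM in M351, M408, M9, M624 and M664. Its log2 fold change was -2.24 (SE 1.14, adjusted p = 0.232 by edgeR), and M9 with 2 counts overlapped the p53-driven tumors.

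Besides Hoxa13, the genes with estimates above 0 were Hoxc4, Hoxc5, Hoxc6 and Hoxc8, of the 3′ part of HOXC. Hoxc4 was at 5.13, 2.10, 2.77 and 7.42 CPM in F187, F325, F331 and F368 and 3.69, 3.11, 13.5, 0.152 and 15.1 CPM in M351, M408, M9, M624 and M664, a log2 fold change of 0.70 (SE 0.94, adjusted p = 0.671 by edgeR). Hoxc5 was at 3.55, 3.58, 2.25 and 0.851 CPM and 1.23, 0.916, 6.37, 0 and 6.26 CPM in the same orders. Hoxc6 was at 2.37, 14.3, 3.03 and 2.67 CPM and 9.23, 3.48, 10.4, 0 and 9.33 CPM. Hoxc8, which acts at the thoracic level, was at 6.71, 13.4, 1.38 and 1.09 CPM and 6.16, 4.94, 7.97, 0 and 13.8 CPM. In all 4 genes M624 was the lowest and the groups overlapped. The estimates of Hoxc5, Hoxc6 and Hoxc8 were 0.18 (SE 1.16), 0.14 (SE 1.10) and 0.22 (SE 1.16), with edgeR adjusted p of 0.941, 0.953 and 0.930, and the sign of each turned in several alternatives.

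The 4 clusters lie on separate chromosomes in mouse build GRCm38 (mm10). HOXA spans chr6:52155590-52260880, HOXB chr11:96194316-96368256, HOXC chr15:102921103-103036852 and HOXD chr2:74668310-74765142, counted from the outermost HOX exons. Besides the HOX genes these spans held 44 annotated genes that are not protein coding in the table, of which 7 were tested, 0 were called by edgeR, DESeq2 or limma-voom, 0 were at an unadjusted p under 0.05, and 14 had more than 10 counts in at least 1 tumor. By mean CPM they were led by Hotairm1 in HOXA, Gm11539 in HOXB, Hotair in HOXC and Hoxd3os1 in HOXD. Hotairm1, a noncoding gene of HOXA, was at 2.76, 4.28, 1.99 and 1.22 CPM in F187, F325, F331 and F368 and 1.23, 1.28, 3.19, 0.229 and 6.91 CPM in M351, M408, M9, M624 and M664. Its groups overlapped (log2 fold change 0.03, SE 0.86, adjusted p = 0.989 by edgeR). Gm11539 is a processed pseudogene, whose reads may come from its parent gene, and it was at 2.26 to 10.3 CPM. Hoxd3os1 had 77 counts in F325, 82 in F331 and at most 7 in the other 7 tumors. Hotair, a lumbosacral HOXC transcript known for its link to Polycomb, had at most 7 counts in any tumor.

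MicroRNA genes inside the clusters are shown because members of the miR-196 family, which sit beside the group 9 genes, are known to cut Hoxb8 mRNA, and Hoxb8 had the largest negative estimate. Their hairpins were at or near 0 in these libraries, which were not made for small RNA: Mir196a-1 had 3 counts in F325 and 0 in the other 8 tumors, Mir196a-2 had 1 count in F187, Mir196b had 0, Mir10a had 1 count in F331 and in F368, and Mir10b had 2 in M664. The level of the mature forms was thus not measured. The mature 5′ forms are given from RefSeq (GRCm38.p6) with the seed, bases 2 to 8, in capitals. The miR-196 pair shares 1 seed and the miR-10 pair another.
miR-196a-5p: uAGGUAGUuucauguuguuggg
miR-196b-5p: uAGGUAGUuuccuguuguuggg
miR-10a-5p: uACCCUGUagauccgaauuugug
miR-10b-5p: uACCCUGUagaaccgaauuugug

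Promoter windows were searched for the E-box CACGTG, the letters that MYC with MAX is known to bind, and for TGATNNAT, which HOX proteins bind together with TALE partners. RefSeq windows of 300 bases (GRCm38.p6) were found for 22 of the 39 HOX genes, 24 windows in all, and both strands were searched. CACGTG was in 5 of 24 windows (20.8%), beside 2349 of 32851 windows of the same length (7.15%). All 5 were among the 10 HOXD windows, those of Hoxd1, Hoxd4, Hoxd10, Hoxd13 and 1 of the 2 of Hoxd11, and each of these genes had at most 19 counts in any tumor. TGATNNAT was in 4 of 24 windows (16.7%), those of Hoxa2, Hoxb1, Hoxb8 and the Hoxd11 window that also has an E-box, beside 8.85% of all. A match is a description of the letters and was not tested for binding. Printed are the windows of 2 genes with an E-box and at most 7 counts in any tumor, Hoxd10 at chr2:74691641-74691940 (plus strand) and Hoxd13 at chr2:74667975-74668274 (plus strand), and of 2 genes without one that were high in single tumors, Hoxb8 at chr11:96281655-96281954 (plus strand) and Hoxa11 at chr6:52245761-52246060 (minus strand). Capitals mark CACGTG.
Hoxd10: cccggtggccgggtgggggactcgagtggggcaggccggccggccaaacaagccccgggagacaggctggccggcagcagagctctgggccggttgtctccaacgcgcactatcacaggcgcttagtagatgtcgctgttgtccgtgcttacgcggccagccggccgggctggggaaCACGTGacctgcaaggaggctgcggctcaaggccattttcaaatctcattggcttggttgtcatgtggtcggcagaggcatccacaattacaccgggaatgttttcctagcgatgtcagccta
Hoxd13: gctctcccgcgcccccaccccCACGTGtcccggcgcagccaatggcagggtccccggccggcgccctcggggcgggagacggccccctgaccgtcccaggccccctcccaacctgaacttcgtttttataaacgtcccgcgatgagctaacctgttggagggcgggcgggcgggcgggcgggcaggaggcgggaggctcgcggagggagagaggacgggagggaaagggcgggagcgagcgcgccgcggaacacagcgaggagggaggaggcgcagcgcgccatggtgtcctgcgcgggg
Hoxb8: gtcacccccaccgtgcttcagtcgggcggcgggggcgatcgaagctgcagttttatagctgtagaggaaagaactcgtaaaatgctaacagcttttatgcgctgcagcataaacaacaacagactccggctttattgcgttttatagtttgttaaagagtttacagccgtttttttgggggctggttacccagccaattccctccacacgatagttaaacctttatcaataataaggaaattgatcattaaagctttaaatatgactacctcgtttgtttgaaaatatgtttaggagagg
Hoxa11: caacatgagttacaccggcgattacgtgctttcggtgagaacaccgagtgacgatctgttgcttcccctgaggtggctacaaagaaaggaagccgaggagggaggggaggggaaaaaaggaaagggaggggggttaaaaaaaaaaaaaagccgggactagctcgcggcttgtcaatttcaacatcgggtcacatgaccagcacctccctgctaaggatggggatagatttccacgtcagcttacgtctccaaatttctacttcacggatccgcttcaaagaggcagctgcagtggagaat

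HOX proteins bind DNA with TALE homeodomain partners, and these were more even over the tumors than the HOX genes. Of the 9 TALE genes 8 were tested and 0 were called by edgeR, with 1 at an unadjusted p under 0.05. DESeq2 called 0 and limma-voom called 1 lower, and their median log2 fold change was -0.30. Among all genes 26.8% were at an unadjusted p under 0.05 in edgeR, DESeq2 called 13.6% and limma-voom 10.8%. Their summed level was 174 to 195 CPM in the p53-driven tumors and 177, 221, 239, 133 and 129 CPM in M351, M408, M9, M624 and M664. Meis1, a HOX partner, was at 7.27 to 27.2 CPM in p53-driven and 3.02 to 31.9 CPM in Myc-knockin tumors (-0.29, SE 0.66, adjusted p = 0.814 by edgeR), and its sign turned without M624 (0.03) or M664 (0.02). Without F187, M351, M408 and M9 Meis1 was called lower, at -2.31 with an adjusted p of 0.0386, within a range of 0.0386 to 0.992 over 22 alternatives. Meis2, a proximal limb factor, was at 11.5 to 36.0 CPM and 0.305 to 30.2 CPM (-0.47, SE 0.81, adjusted p = 0.747 by edgeR), with M624 the lowest.

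Genes that flank the clusters or descend from the same ancestral cluster were at or near 0 outside the libraries with satellite reads. Evx1, Evx2 and the ParaHox genes, 8 in all with 0 tested, summed to 0.0778, 0 and 0 CPM in F325, F331 and F368 and 0.0762 and 0 CPM in M624 and M664. In F187, M351, M408 and M9 they summed to 9.48, 20.3, 0.549 and 43.0 CPM, and Evx2 had the highest mean CPM. Kidney and gut markers, 10 genes led in mean CPM by Slc12a1, with 1 tested and 0 called by edgeR, DESeq2 or limma-voom or at an unadjusted p under 0.05, followed the same libraries, at 20.1, 46.2, 3.85 and 76.5 CPM in F187, M351, M408 and M9 and at most 1.77 CPM in the other 5.

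Limb factors gave no clear address to match the HOX code. Tbx5 (forelimb) had 12 counts in M9 with 5.74 expected as background and at most 7 elsewhere. Tbx4 (hindlimb) had 14 counts in M624, 15 in M664, 10 in F331 and at most 8 elsewhere, which is 0.533, 0.648 and 0.865 CPM in those 3. Pitx1 (hindlimb) had 27 counts in M9, or 21.5 CPM, with 3.26 expected as background, and at most 9 elsewhere. None of these 3 passed the filter. Of the 23 limb position factors 15 were tested and 0 were called by edgeR, with 4 at an unadjusted p under 0.05, and the median log2 fold change was 1.17. DESeq2 called 2 higher and 1 lower, and limma-voom called 0 higher and 2 lower. Among all genes 26.8% were at an unadjusted p under 0.05 in edgeR, DESeq2 called 13.6% and limma-voom 10.8%. Gli3, a transducer of Hedgehog signaling in the limb bud, had the highest mean CPM (16.1 to 96.3 CPM). Shox2, which builds the proximal limb bones, was at 41.1, 56.7, 105 and 72.5 CPM in F187, F325, F331 and F368 and 6.16, 15.6, 27.9, 0.495 and 2.81 CPM in M351, M408, M9, M624 and M664. Its groups did not overlap, and the log2 fold change was -2.83 (SE 0.85) with an edgeR adjusted p of 0.0700. It was past the threshold in 7 of 22 alternatives, with adjusted p from 0.00720 by DESeq2 to 0.992 among F187, M351, M408 and M9 alone, and at 0.0328 without M9.

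Head and trunk factors were mixed. Of the 19 head and jaw factors 10 were tested, with a median log2 fold change of 1.85, and edgeR called 0 higher and 1 lower, with 5 at an unadjusted p under 0.05. DESeq2 called 4 higher and 1 lower, and limma-voom 3 higher and 1 lower. Over all tested genes edgeR called 5.27%, DESeq2 13.6% and limma-voom 10.8%, and 26.8% were at an unadjusted p under 0.05 in edgeR. The summed level ran the other way from the median, at 649.8, 719, 920.1 and 655 CPM in F187, F325, F331 and F368 and 463, 229, 554, 64.8 and 277 CPM in M351, M408, M9, M624 and M664. The gene called by edgeR was Dlx3, a homeodomain factor of osteoblasts and teeth, at 65.6, 55.8, 55.3 and 63.8 CPM in F187, F325, F331 and F368 and 22.8, 13.2, 15.9, 9.45 and 36.5 CPM in M351, M408, M9, M624 and M664. It fell by 1.61 on the log2 scale (SE 0.37, adjusted p = 0.0372 by edgeR), in 5 of 5 Myc-knockin tumors. Of the 18 trunk factors 10 were tested and 0 were called by edgeR, with 2 at an unadjusted p under 0.05, 1 called lower by DESeq2 and 0 by limma-voom. Their median log2 fold change was 0.41, and Tbx15 had the highest mean CPM, at 8.0 to 50.9 CPM.

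Retinoic acid opens the 3′ ends of the HOX clusters, and 2 genes of its axis were called higher in Myc-knockin tumors. The share called over all tested genes was 5.27%. Of 18 genes 13 were tested, with a median log2 fold change of 0.46, and Rarg, a retinoic acid receptor, had the highest mean CPM. Crabp2, which carries retinoic acid to its receptors, was at 1.58, 0.544, 0.605 and 0.608 CPM in F187, F325, F331 and F368 and 6.16, 6.04, 3.98, 46.9 and 3.97 CPM in M351, M408, M9, M624 and M664. Its log2 fold change was 4.19 (SE 0.94, adjusted p = 0.0348 by edgeR). Stra6, the receptor that takes up retinol, was at 2.37, 0.467, 1.56 and 1.09 CPM and 15.4, 5.13, 9.56, 67.6 and 4.45 CPM in the same orders, a log2 fold change of 4.03 (SE 0.94, adjusted p = 0.0392 by edgeR). M624, the tumor with the least HOX RNA, had the most of both. Without M624 Stra6 was at 2.74 with an adjusted p of 0.0548, within a range of 0.000169 to 0.992 over 21 alternatives, and Crabp2 no longer passed the filter.

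Trithorax factors keep HOX genes active and Polycomb factors keep them silent. Of 22 trithorax and activation factors all were tested, and edgeR called 1 higher and 0 lower, beside 5.27% of all tested genes called in either direction, with 6 at an unadjusted p under 0.05. DESeq2 called 1 higher and 1 lower, and limma-voom 1 higher and 0 lower. Among all genes 26.8% were at an unadjusted p under 0.05 in edgeR, DESeq2 called 13.6% and limma-voom 10.8%. The list had a median log2 fold change of 0.20, and Kmt2d had the highest mean CPM. Ash2l, a core subunit of the H3K4 methyltransferases, was at 36.3, 27.9, 24.9 and 21.2 CPM in F187, F325, F331 and F368 and 74.5, 63.5, 62.1, 118 and 63.9 CPM in M351, M408, M9, M624 and M664 (log2 fold change 1.48, SE 0.29, adjusted p = 0.0262 by edgeR). Kmt2a, the methyltransferase that maintains HOX transcription, was at 100 to 183 CPM and 46.6 to 149 CPM (-0.42, SE 0.38, adjusted p = 0.515 by edgeR). Of 24 Polycomb factors all were tested, and edgeR called 1 higher and 1 lower, again beside 5.27% of all tested genes, with a median of 0.09, and Aebp2 had the highest mean CPM. Pcgf6, of a variant PRC1 that works with MAX, was at 5.53, 3.66, 5.36 and 4.38 CPM and 16, 17.8, 16.7, 20.4 and 19.9 CPM in the same orders (1.95, SE 0.30, adjusted p = 0.0175 by edgeR). Phc3, a canonical PRC1 subunit, was at 85.3, 73.3, 88.8 and 103 CPM and 47.4, 44.3, 54.2, 38.6 and 26.5 CPM (-1.06, SE 0.26, adjusted p = 0.0428 by edgeR). Ezh2, the H3K27 methyltransferase of PRC2, was at 38.9 to 78.0 CPM and 35.1 to 70.4 CPM (-0.16, SE 0.33, adjusted p = 0.796 by edgeR, and 0.00 without F325).

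Among markers of other cells that a tumor can hold, fibroblast and macrophage genes were called lower in Myc-knockin tumors. Of 12 fibroblast markers 11 were tested and edgeR called 4 lower in Myc-knockin tumors, beside 5.27% of all tested genes called in either direction. They were Dcn (-3.78), Lum (-3.57), Postn (-3.54) and Fap (-2.95, all log2 fold changes), with edgeR adjusted p of 0.0265, 0.0392, 0.0223 and 0.0321. Postn had the highest mean CPM, and the list summed to 3129, 2122, 3583 and 6094 CPM in F187, F325, F331 and F368 and 1229, 758, 628, 290 and 657 CPM in M351, M408, M9, M624 and M664. Of 10 macrophage markers, all tested, Cd68 (-2.27) and Csf1r (-2.47) were called lower, with edgeR adjusted p of 0.0229 and 0.0243, again beside 5.27% of all genes, and Csf1r had the highest mean CPM. The macrophage list summed to 670, 835, 1252 and 941 CPM in F187, F325, F331 and F368 and 267, 506, 252, 210 and 706 CPM in M351, M408, M9, M624 and M664. Of the 16 osteoblast markers Bglap (-5.34) and Bglap2 (-5.42), the osteocalcin genes, were called lower, beside the same 5.27%, with edgeR adjusted p of 0.0260 and 0.0288. Fibroblast, macrophage and osteoblast sums were thus lowest in M624, as was the HOX sum. The endothelial sum (93.2 CPM) and the muscle sum (11.9 CPM) were lowest there too. Cartilage and blood progenitor sums were lowest in M408 (149 CPM) and F325 (51.4 CPM). The part of any of these cells in the HOX sum of M624 was not tested. Of 8 cartilage, 8 endothelial and 6 blood progenitor markers tested, 0 were called by edgeR, with 4, 1 and 2 at an unadjusted p under 0.05. DESeq2 called 1 cartilage marker higher and 1 lower and 1 blood progenitor marker lower, and limma-voom called 1 of each of those lists lower. Among all genes 26.8% were at an unadjusted p under 0.05 in edgeR, DESeq2 called 13.6% and limma-voom 10.8%. The genes with the highest mean CPM were Col11a2, Cdh5 and Spi1.

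The 14 calls in these other lists did not hold with every tumor left out. Leaving out F325, F331 or F368 left 0 of the 14 past the threshold (adjusted p 0.0640 to 0.153) and 8, 6 and 5 genes called in all, while the sign of all 14 was kept in those 3 fits. Without F325 the log2 fold change was -4.03 for Dcn, -2.55 for Csf1r and 1.85 for Pcgf6, close to the values with all 9 tumors. Leaving out F187, M351, M408, M624 or M664 left 7, 10, 11, 9 and 10 of them, and 335, 371, 847, 375 and 698 genes called in all. Without M9 all 14 passed and 1588 genes were called.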

How the data were processed

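RNA of 9 mouse tumors was sequenced as read pairs, and the authors trimmed the reads with Trim Galore, mapped them with STAR to mm10 and deposited raw counts per gene from featureCounts, 1 column per tumor. The strand setting was not stated. Columns were placed in groups by their letter, F for p53-driven and M for Myc knockin. Members and lists were chosen with earlier results of these data known. Differences were fitted over the whole table with edgeR 4.0.16 (TMM normalization, filterByExpr with a minimum count of 10, quasi-likelihood F test, Benjamini-Hochberg adjustment over 15365 genes) in R 4.3.3, and again with DESeq2 1.42.0 and limma-voom (limma 3.58.1). The steps were tested on simulated data. CPM used TMM-scaled library sizes. Expected background was the counts per kb of 1543 chemosensory receptor genes times exon length. A count of 0 allows up to 3 counts. Values in every tumor are given for HOX genes that were called, did not overlap between groups, led their cluster per kb, or were among the 5 largest fold changes in a direction. Hoxb6, Hoxb7, Hoxa11, Hoxc11, Runx2, Gm53, Hoxa11os and the genes printed with promoters or microRNAs were chosen after their values were seen.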

Additional observations from a re-analysis of the deposited data

Results flagged for a closer look

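In 6 of 60 sets of values (a HOX gene in a group of tumors) 1 tumor lay far from the others of its group, judged by its gap to the nearest tumor against the whole range. The limits used would flag about 1 in 20 groups by chance if values followed a normal distribution. CPM values were not shown to do so, and all 6 flags fell on the highest tumor of a group. The number flagged can therefore not be set against that rate. Hoxb9 in F325 was at 94.4 CPM, with F187 next at 3.16 CPM. Hoxc6 in F325 was at 14.3 CPM, with F331 next at 3.03 CPM. Hoxa11 in F331 was at 7.09 CPM, with F187 next at 0.395 CPM. Hoxa11 in M664 was at 11.3 CPM, with M408 next at 1.83 CPM. Hoxb2 in M664 was at 6.0 CPM, with M9 next at 1.59 CPM. Hoxa4 in F187 was at 6.32 CPM, from 16 counts, with F368 next at 2.19 CPM. Their causes were not tested.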

How the results depend on the processing

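Over 22 alternatives, 0 HOX genes were called higher in Myc-knockin tumors wherever HOX genes could be tested. Requiring at least 10 counts in every tumor left 0 HOX genes to test and gives no HOX value. Genes called numbered 136 with library size alone, 494 with all genes of at least 1 count, 1316 with at least 10 counts in every tumor, 2317 with DESeq2, 1663 with limma-voom, 4595 without F187, M351, M408 and M9, 0 among those 4 alone, and 5 to 1588 with each tumor left out in turn. HOX genes called lower numbered 1 with DESeq2, 2 with limma-voom, 1 without M624 and M664, 1 without F187, M351, M408 and M9, and 0 to 1 with each tumor left out. The median HOX log2 fold change was -1.42 to -0.61 with each tumor left out. Signs turned for Hoxc6 with library size alone (-0.26), all genes (-0.063), limma-voom (-0.73) and without the 4 satellite-rich libraries (-0.48). They also turned in limma-voom for Hoxc4 (-0.058), Hoxc5 (-1.23) and Hoxc8 (-0.30), for Hoxc5 with background subtracted (-0.057), and for Hoxc8 with low counts set to 0 (-0.55). Among the 4 satellite-rich libraries alone Hoxc8 was at -0.14, Hoxc10 at 1.66, Meis1 at 0.60 and Meis2 at 1.02, and without M624 and M664 Meis1 was at 0.43 and Meis2 at 0.16. With each tumor left out Hoxc5 ran from -0.49 to 0.60, Hoxc6 from -0.14 to 1.23, Hoxc8 from -0.30 to 1.16, Meis1 from -0.84 to 0.028 and Ezh2 from -0.34 to 0.0029. In all, 23 of 233 values of named HOX genes and 7 of 451 of other named genes changed sign, and the cause was not tested. No paired analysis was possible because the columns carry no replicate numbers. Depth limits M351 and M9 most, where 872935 and 671790 counts remained without satellites.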
